A study of Mus musculus with 7 samples.

Results

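The unfolded protein response and the integrated stress response were followed through 32 listed genes. The samples were pellets of retinal pigment epithelium (RPE) from wild-type mice and from mice carrying the rd6 allele of Mfrp. The list holds genes of protein folding in the endoplasmic reticulum (ER), of the removal of misfolded proteins from it, of the sensors of folding stress and of the response under the transcription factor ATF4. All 32 had a probe set annotated to a single gene, and 19938 genes were tested in all. RPE, the pigmented layer behind the photoreceptors, was shaken loose from opened eyecups in a preserving solution and pelleted, and its total RNA was hybridised to Affymetrix whole-transcript arrays, 1 array per sample. The 4 wild-type and 3 Mfrp rd6 samples all had the C57Bl/6J background and differed in genotype. The age field of the labels gives 8 weeks for every wild-type sample and 12 weeks for every Mfrp rd6 sample, and under that field age cannot be told apart from genotype, whereas by the growth protocol Mfrp rd6 replicate 1 alone was 12 weeks old and all others 8. The product of Mfrp is a membrane protein of the RPE related to frizzled receptors, and rd6 is a recessive inherited allele carried by every cell, with slow loss of photoreceptors. The labels do not state whether each replicate is a separate animal, and the p-values therefore reflect the spread among these 7 samples, which may be technical.

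Secreted and membrane proteins fold in the ER with the help of chaperones, lectins and disulfide isomerases. When folding lags, the sensors IRE1 (gene Ern1), PERK (Eif2ak3) and ATF6 are set free by the chaperone BiP (Hspa5). IRE1 splices Xbp1 messenger RNA into the form that encodes an active factor, ATF6 is cut in the Golgi into an active fragment, and PERK phosphorylates the initiation factor eIF2, which slows translation in general and favours that of ATF4. XBP1 and ATF6 raise chaperone and degradation genes, and ATF4 raises genes of amino acid supply, redox balance and, through CHOP (Ddit3), cell death. The RPE carries a heavy load of membrane and secreted proteins, and folding stress is a known feature of several of its inherited diseases. The arrays measured transcript levels and none of the splicing, cleavage or phosphorylation steps.

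Transcripts of the ER-directed part of the response have short shared promoter elements, and the stretches below are shown because the genes beside them are those whose values are described. Promoter windows of 300 bases (250 before and 50 after the start site) were found in RefSeq (build GRCm38.p6) for 28 of the 32 members. The ER stress response element (ERSE) was searched on both strands as CCAAT and CCACG with 9 bases of any kind between them. It lay in the windows of 9 of these 28 members. Of all 27025 genes with a window 37 held it, the members included (0.119% of all 32851 windows). ERSE-II was searched as ATTGG and CCACG with 1 base of any kind between them. It lay in the windows of Herpud1 and Dnajb11, against 12 of the 27025 genes (0.0365% of all windows). No member had both ERSE and ERSE-II. The XBP1-type core TGACGTGG matched in 0 members and in 193 of the 27025 genes (0.676% of all windows). The ATF4-C/EBP element, searched as TGATGNAA, matched in Chac1, Trib3, Asns and Herpud1, against 1219 of the 27025 genes (3.97% of all windows). A match is a description of the letters, not a site shown to be used. The stretches run 5′ to 3′ along the gene's strand and end before the start site, with the fixed letters of each match in capitals, which mark ERSE in Hspa5, Hsp90b1 (a pair of matches), Dnajc3, Canx, Derl3 and Syvn1, both ERSE-II and the ATF4-C/EBP element in Herpud1, and the ATF4-C/EBP element in Chac1 and Asns.
Hspa5, chr2:34772005-34772063, plus strand: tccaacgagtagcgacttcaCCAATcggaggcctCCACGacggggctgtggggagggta
Hsp90b1, chr10:86705513-86705676, minus strand: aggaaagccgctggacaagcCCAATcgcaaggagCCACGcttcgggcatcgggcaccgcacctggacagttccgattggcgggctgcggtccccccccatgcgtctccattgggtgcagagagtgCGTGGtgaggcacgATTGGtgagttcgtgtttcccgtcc
Dnajc3, chr14:118937807-118937865, plus strand: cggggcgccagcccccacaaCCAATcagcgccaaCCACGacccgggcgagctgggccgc
Canx, chr11:50325780-50325838, minus strand: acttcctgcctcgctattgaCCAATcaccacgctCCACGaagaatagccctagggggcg
Derl3, chr10:75893222-75893280, plus strand: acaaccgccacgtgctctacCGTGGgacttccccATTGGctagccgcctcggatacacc
Syvn1, chr19:6046512-6046570, plus strand: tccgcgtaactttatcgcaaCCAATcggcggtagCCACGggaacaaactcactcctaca
Herpud1, chr8:94386297-94386407, plus strand: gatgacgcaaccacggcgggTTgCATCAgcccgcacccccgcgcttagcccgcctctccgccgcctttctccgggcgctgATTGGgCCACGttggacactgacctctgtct
Chac1, chr2:119351029-119351076, plus strand: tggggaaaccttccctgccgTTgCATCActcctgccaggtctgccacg
Asns, chr6:7693210-7693252, minus strand: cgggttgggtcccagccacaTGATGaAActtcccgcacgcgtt

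**Figure D1:**
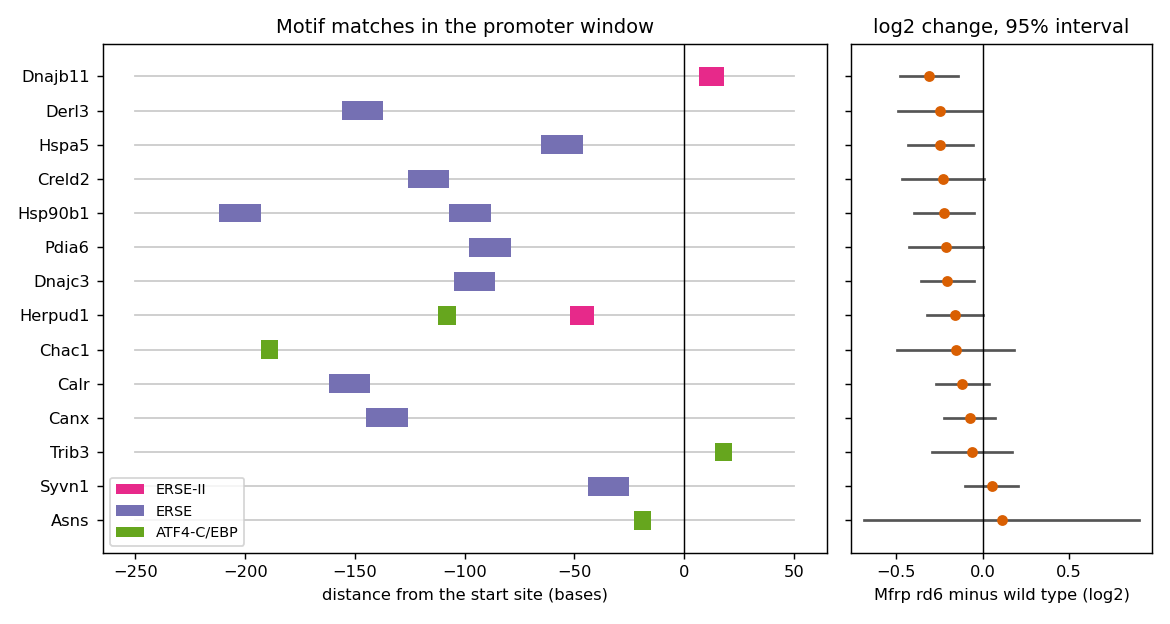
Left, matches of the ERSE, ERSE-II and ATF4-C/EBP elements in the promoter windows of the 14 members that hold one, by distance from the start site in bases. Right, each gene's log2 change (Mfrp rd6 minus wild type, point) with its 95% confidence interval (bar), from Dnajb11 at -0.31 to Asns at 0.11, whose interval runs from -0.68 to 0.90.

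No member of the list passed the test between the genotypes, and most read slightly lower in Mfrp rd6. With limma and Benjamini-Hochberg adjustment over all 19938 genes, 0 of 32 members rose and 0 fell at an adjusted p under 0.05, where 2.15% of all genes were called (1.34% higher and 0.813% lower). The log2 change was negative in 27 of the 32 members (26 after quantile normalization, where Derl1 turned to 0.01), against 56.5% of all genes. The median member differed by -0.15, against -0.02 over all genes, and the single members ranged from -0.31 to 0.23. At an unadjusted p under 0.05, 11 members (34.4%) were lower and 1 was higher, against 9.37% and 5.98% of all genes. In 7 members (21.9%) every Mfrp rd6 array lay below every wild-type array, as in 9.82% of all genes, and in 1 every Mfrp rd6 array lay above, as in 5.52%. Genes above the median signal leaned lower too, with 63% negative and a median of -0.04, and 25 of the 30 members among them were negative. Among these brighter genes 14.5% were lower at an unadjusted p under 0.05 and 16.1% had every Mfrp rd6 array below every wild-type array, against 33.3% and 23.3% of the 30 members, so that the share of separated members lay nearer to that background.

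The sizes that the intervals leave possible were small for nearly all members. The upper limit of the 95% confidence interval lay under a 1.5-fold rise (0.58 on the log2 scale) for 31 of 32 members, the exception being Asns (0.90), and it lay under that size for 19310 of the 19938 genes as well. The standard error of the median member was 0.08 on the log2 scale. The values come from RMA, which compresses the changes of dim probe sets, and the array medians lay between 6.52 and 6.58.

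**Figure D2:**
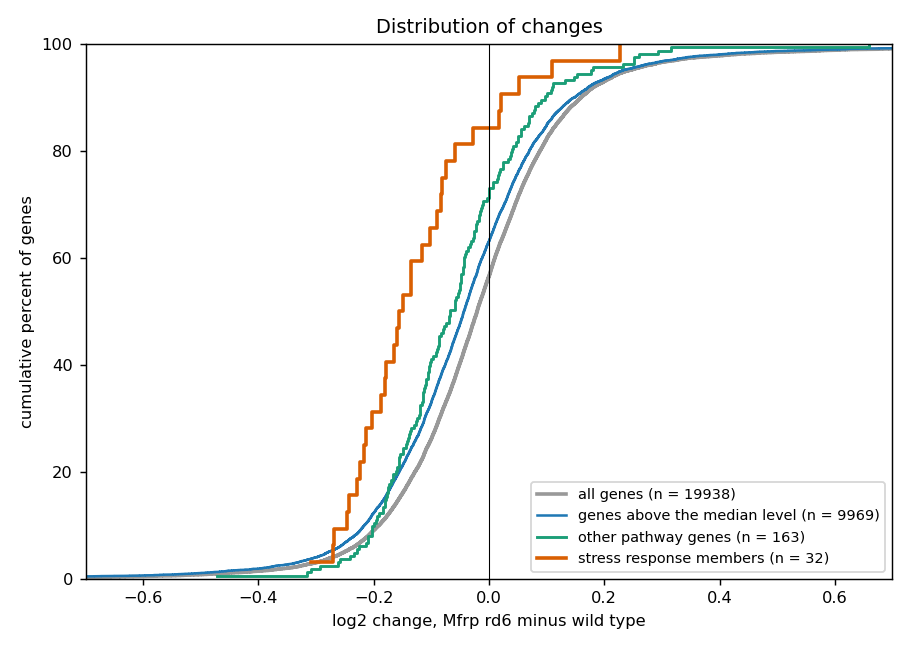
Cumulative percent of genes by log2 change (Mfrp rd6 minus wild type) for all 19938 genes, the 9969 above the median level, 163 other genes of the pathway and the 32 members. The curve of the members lies to the left of the others over most of its length (median -0.15, against -0.02 for all genes), and it ends at 0.23.

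Among the folding genes, 13 of 14 read lower in Mfrp rd6, with a median change of -0.18, and 0 passed. The lowest p of the list was that of Dnajb11, an ER-resident J-domain protein that stimulates BiP. Dnajb11 read 8.75, 8.85, 8.79 and 8.74 on wild-type replicates 1 to 4 and 8.46, 8.59 and 8.37 on Mfrp rd6 replicates 1 to 3, so that the groups did not overlap. Its change was -0.31 (SE 0.07, 95% interval -0.48 to -0.14, limma adjusted p = 0.0743), or -19.3% on the linear scale. Dnajb11 passed in 3 of 18 alternatives, namely when only genes with a mean of at least 6 (limma adjusted p = 0.0446) or above the median level (limma adjusted p = 0.0317) were tested and with a variance trend and robust moderation (limma adjusted p = 0.0327), where 1.71%, 3.03% and 1.78% of all genes tested were called lower.

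BiP itself, the main chaperone of the ER lumen, was close to separated. Hspa5 read 11.70, 11.61, 11.66 and 11.55 on the wild-type arrays and 11.36, 11.55 and 11.25 on the Mfrp rd6 arrays. Mfrp rd6 replicate 2 equalled the lowest wild-type array and the others lay below it. The change was -0.24 (SE 0.08, 95% interval -0.43 to -0.05, limma adjusted p = 0.205). Hsp90b1, the ER form of HSP90 (GRP94), read 11.25, 11.17, 11.16 and 11.18 in wild type and 11.00, 11.08 and 10.82 in Mfrp rd6, with no overlap (change -0.22, SE 0.08, limma adjusted p = 0.205). Hyou1, an exchange factor for BiP, differed by -0.27 (SE 0.09, limma adjusted p = 0.183), from 9.70 ± 0.09 (SD, n = 4) to 9.43 ± 0.15 (SD, n = 3). Dnajc3, a BiP co-chaperone also known as p58IPK, read 10.24, 10.17, 10.20 and 10.11 in wild type and 9.97, 10.05 and 9.91 in Mfrp rd6. Its arrays did not overlap (change -0.20, limma adjusted p = 0.193), and 2 probe sets annotated to it held the same values.

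The disulfide isomerases and the lectin chaperones had changes from -0.21 to -0.07, and 0 passed. Pdia6 averaged 9.12 ± 0.14 in wild type and 8.91 ± 0.13 in mutant samples (SD, n = 4 and 3), a change of -0.21 (95% interval -0.43 to 0.00). Pdia4 differed by -0.14 and Pdia3, which works with the lectin chaperones on glycoproteins, by -0.09, with overlapping arrays in both. A second, dim probe set of Pdia4 went the other way (6.62 in wild type and 6.70 in Mfrp rd6). Calnexin, the membrane-bound lectin chaperone, read 12.30, 12.16, 12.20 and 12.20 in wild type and 12.14, 12.18 and 12.10 in Mfrp rd6 (Canx, change -0.07, 95% interval -0.22 to 0.07). Its soluble relative calreticulin (Calr) differed by -0.12 (95% interval -0.27 to 0.04), and the arrays of Canx and Calr overlapped.

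Changes of the other folding genes ran from -0.23 to 0.02. Creld2, a secreted ER stress protein, differed by -0.23 (95% interval -0.47 to 0.01), and Mfrp rd6 replicate 2 at 9.24 lay within the wild-type range. Sdf2l1, a partner of BiP and J-domain proteins, read 8.77, 9.01, 8.90 and 8.69 in wild type and 8.67, 8.91 and 8.50 in Mfrp rd6 (change -0.15). Manf, a secreted protein with trophic effects in the retina, differed by -0.08 (95% interval -0.25 to 0.08). Dnajb9, a J-domain protein known as a target of XBP1, had the only positive change of the folding genes at 0.02 (95% interval -0.21 to 0.25), and its sign turned in several alternatives.

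The folding genes moved together from array to array within the Mfrp rd6 group. Mfrp rd6 replicate 2 was the highest of the 3 mutant arrays in 14 of 14 folding genes, and replicate 3 was the lowest in 11. In wild type, replicate 4 was the lowest array in 10 of 14. The low arrays were not particular to folding. Over all 32 members, Mfrp rd6 replicate 3 was the lowest of its group in 20 and wild-type replicate 4 in 20. Mfrp rd6 replicate 2 was the highest of its group in 18 of the 32, of which 14 were the folding genes. The same order over all genes was not counted. Averaged over the 14 genes, the log2 value was 10.30, 10.34, 10.30 and 10.21 on the wild-type arrays and 10.11, 10.25 and 10.01 on the Mfrp rd6 arrays, so that Mfrp rd6 replicate 2 lay above wild-type replicate 4. The difference of these means was -0.17, or -0.11 without Mfrp rd6 replicate 3 and -0.23 without Mfrp rd6 replicate 2.

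**Figure D3:**
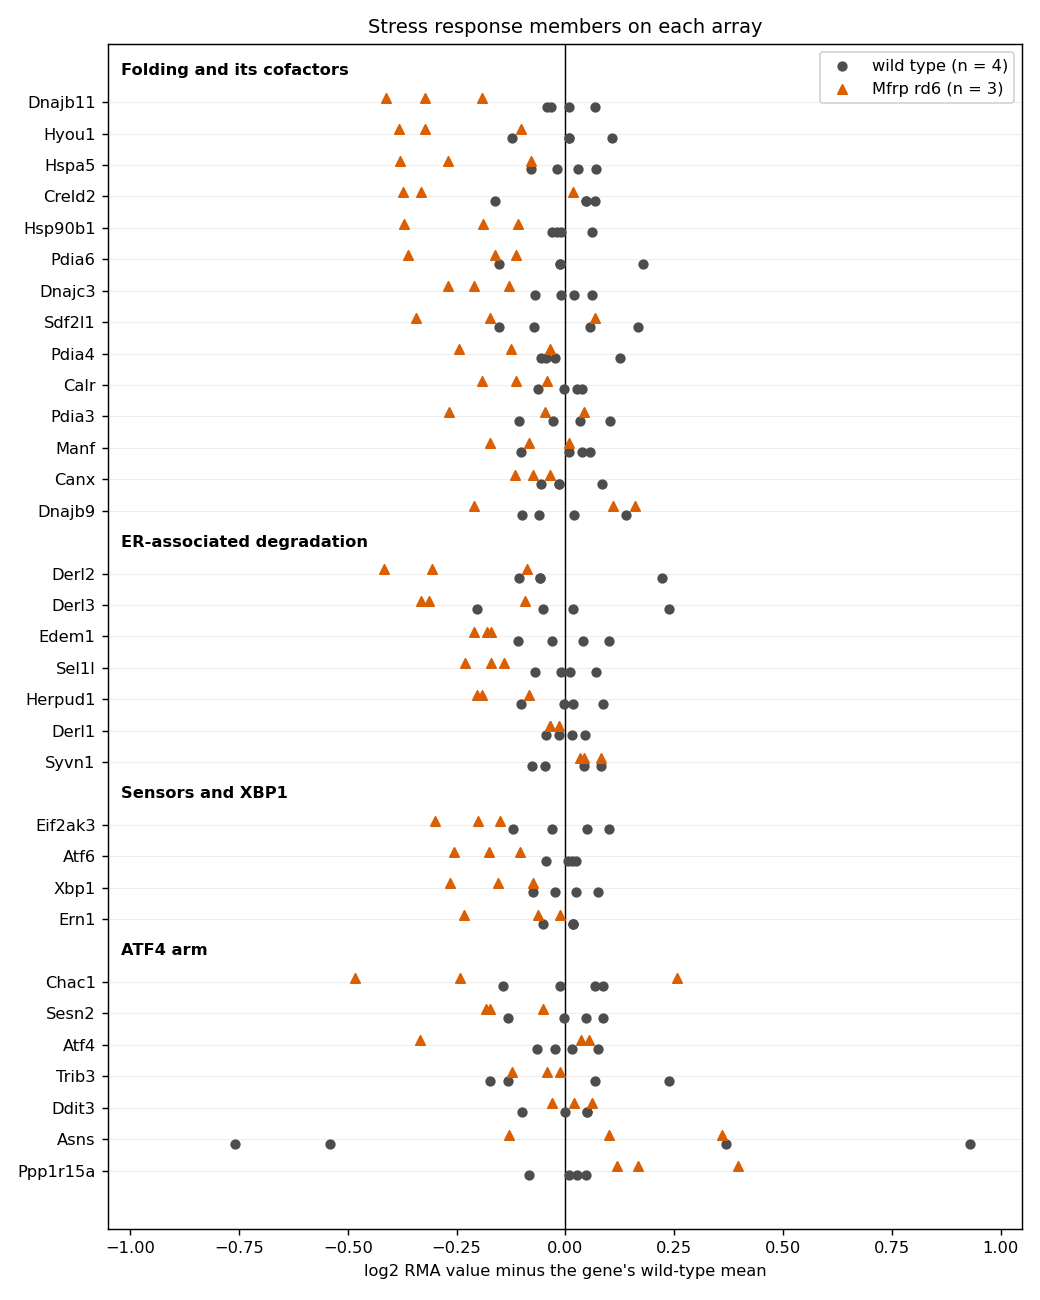
Each array's log2 value minus the gene's wild-type mean, for the 32 members grouped by role (circles, 4 wild-type arrays; triangles, 3 Mfrp rd6 arrays). The triangles lie left of every circle for Dnajb11, Hsp90b1, Dnajc3, Edem1, Sel1l, Eif2ak3 and Atf6 and right of every circle for Ppp1r15a, and the wild-type arrays of Asns spread the widest (SD 0.79).

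Genes of ER-associated degradation, the route that carries misfolded proteins back to the cytosol for destruction, gave a similar picture. Of 7 members 6 read lower (5 after quantile normalization, where Derl1 turned), with a median change of -0.18, and 0 passed. Sel1l, the adaptor of the main ubiquitin ligase of the ER, read 10.12, 10.20, 10.14 and 10.06 in wild type and 9.99, 9.96 and 9.90 in Mfrp rd6, with no overlap (change -0.18, SE 0.07, limma adjusted p = 0.233). Syvn1, the ligase HRD1 that Sel1l serves, had overlapping arrays, with 9.26, 9.17, 9.30 and 9.14 in wild type and 9.25, 9.26 and 9.30 in Mfrp rd6 (change 0.05, 95% interval -0.10 to 0.21). Thus within this complex the arrays of the adaptor were separated and those of the ligase overlapped, a contrast that was not tested. Edem1, a lectin that picks misfolded glycoproteins, read 10.01, 10.07, 9.94 and 9.86 in wild type and 9.79, 9.76 and 9.80 in Mfrp rd6, again without overlap (change -0.19, SE 0.07, limma adjusted p = 0.247). The Mfrp rd6 arrays of Edem1 were tight (SD 0.02).

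The derlins are membrane proteins of the same route, and their 95% intervals overlapped one another. Derl2 had the largest change of the degradation genes at -0.27 (SE 0.11, 95% interval -0.51 to -0.03, limma adjusted p = 0.254). The arrays of Derl2 read 8.95, 9.23, 8.90 and 8.95 in wild type and 8.92, 8.70 and 8.59 in Mfrp rd6, and Mfrp rd6 replicate 1 lay within the wild-type range. Wild-type replicate 2 stood apart at 9.23, and without it the change was -0.20. Derl3 differed by -0.25 (7.19 ± 0.18 against 6.95 ± 0.13, SD, n = 4 and 3). Derl1 read 9.94 ± 0.04 and 9.91 ± 0.01 and differed by -0.03 (95% interval -0.17 to 0.11). Whether the derlins differed from each other was not tested. Herpud1, a stress-induced scaffold of the ligase complex whose promoter holds both ERSE-II and the ATF4-C/EBP element, read 11.01, 10.99, 11.08 and 10.89 in wild type and 10.91, 10.80 and 10.79 in Mfrp rd6. Only Mfrp rd6 replicate 1 lay within the wild-type range (change -0.16, SE 0.07, limma adjusted p = 0.336).

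The sensors and Xbp1 all had negative changes, with a median of -0.17, and 0 of 4 passed. PERK showed the largest, and Eif2ak3 read 8.62, 8.79, 8.84 and 8.71 in wild type and 8.54, 8.59 and 8.44 in Mfrp rd6, without overlap (change -0.22, SE 0.08, 95% interval -0.39 to -0.04, limma adjusted p = 0.215). Atf6 was separated as well, with 9.76, 9.75, 9.74 and 9.69 in wild type and 9.63, 9.56 and 9.48 in Mfrp rd6 (change -0.18, SE 0.07, limma adjusted p = 0.237). For IRE1 the arrays overlapped. Ern1 read 9.37, 9.44, 9.44 and 9.44 in wild type and 9.41, 9.36 and 9.19 in Mfrp rd6 (change -0.10, 95% interval -0.27 to 0.06). Xbp1, the target of IRE1 and itself raised by ATF6, read 11.27, 11.37, 11.32 and 11.22 in wild type and 11.03, 11.22 and 11.14 in Mfrp rd6. Mfrp rd6 replicate 2 equalled the lowest wild-type array (change -0.17, SE 0.07, 95% interval -0.33 to 0.00, limma adjusted p = 0.328). The spliced and unspliced forms of Xbp1 share 1 probe set and were not told apart.

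In the ATF4 arm the changes lay on both sides of 0. Of its 7 members 4 had a negative and 3 a positive change, the median was -0.06, and 0 passed. Atf4 read 7.51, 7.41, 7.45 and 7.37 in wild type and 7.49, 7.47 and 7.10 in Mfrp rd6, where replicate 3 alone lay below the wild-type range (change -0.08, 95% interval -0.31 to 0.14). Without that array the change was 0.04. ATF4 is raised mainly in translation, which transcript levels do not show. Ddit3, encoding the cell death factor CHOP, read 7.65, 7.50, 7.60 and 7.65 in wild type and 7.57, 7.66 and 7.62 in Mfrp rd6, and the groups lay on top of each other. Its change of 0.02 had a 95% interval of -0.14 to 0.17, so that a rise of CHOP transcript by more than 1.13-fold lay outside the interval.

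The largest positive change was that of Ppp1r15a, encoding GADD34, which returns eIF2 to its unphosphorylated state and so ends the translation block. It read 7.69, 7.80, 7.82 and 7.78 in wild type and 7.94, 7.89 and 8.17 in Mfrp rd6, with every Mfrp rd6 array above every wild-type array. The change was 0.23 (SE 0.08, 95% interval 0.04 to 0.41) and did not pass (limma adjusted p = 0.227). Ppp1r15a is also induced quickly by handling and growth signals. Of a list of 10 immediate early genes 1 rose (Nr4a1, 0.59, limma adjusted p = 0.038) and the other 9 had positive changes that did not pass, from 0.04 to 0.82, with overlapping list means of 8.41 to 8.90 in wild type and 8.73 to 9.41 in Mfrp rd6. The part of handling in the value of Ppp1r15a was not tested.

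Other targets of ATF4 were scattered. Chac1, which breaks down glutathione, read 10.10, 10.18, 10.20 and 9.97 in wild type and 9.87, 9.63 and 10.37 in Mfrp rd6. The Mfrp rd6 arrays thus lay on both sides of wild type (change -0.16, 95% interval -0.50 to 0.18). Asns, which makes asparagine, read 7.74, 6.83, 8.30 and 6.61 in wild type and 7.73, 7.47 and 7.24 in Mfrp rd6, so that the wild-type arrays alone spread over 1.69 log2 units. The interval of its change of 0.11, from -0.68 to 0.90, left sizes in both directions. The SD of Asns in wild type was 0.79, against at most 0.19 for the other 31 members. Trib3, a pseudokinase that feeds back on ATF4, read 6.43 ± 0.19 and 6.37 ± 0.06 (SD, n = 4 and 3), near the array median. Sesn2, a stress-induced brake on mTORC1, differed by -0.14 (95% interval -0.31 to 0.04).

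The mean values by role were set side by side for each array. The means of the degradation genes were 9.46, 9.58, 9.49 and 9.43 on the wild-type arrays and 9.38, 9.35 and 9.31 on the Mfrp rd6 arrays, and those of the sensors and Xbp1 were 9.75, 9.84, 9.84 and 9.76 against 9.65, 9.68 and 9.56. In both roles the groups did not overlap, whereas in the folding role they did. Such separation was not particular to these roles. Of the lists described below, the 29 genes that bring proteins into the ER had means of at least 9.87 in wild type and at most 9.85 in Mfrp rd6. Surface epithelium and fibroblast markers were separated in the same direction, and the further folding, degradation, sensor and ATF4 lists overlapped. How often other gene sets of these sizes separate was not counted. For the ATF4 arm the means were 7.93, 7.77, 8.03 and 7.70 in wild type and 7.88, 7.80 and 7.86 in Mfrp rd6, with all Mfrp rd6 arrays inside the wild-type range. Whether the roles differed from each other was not tested.

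**Figure D4:**
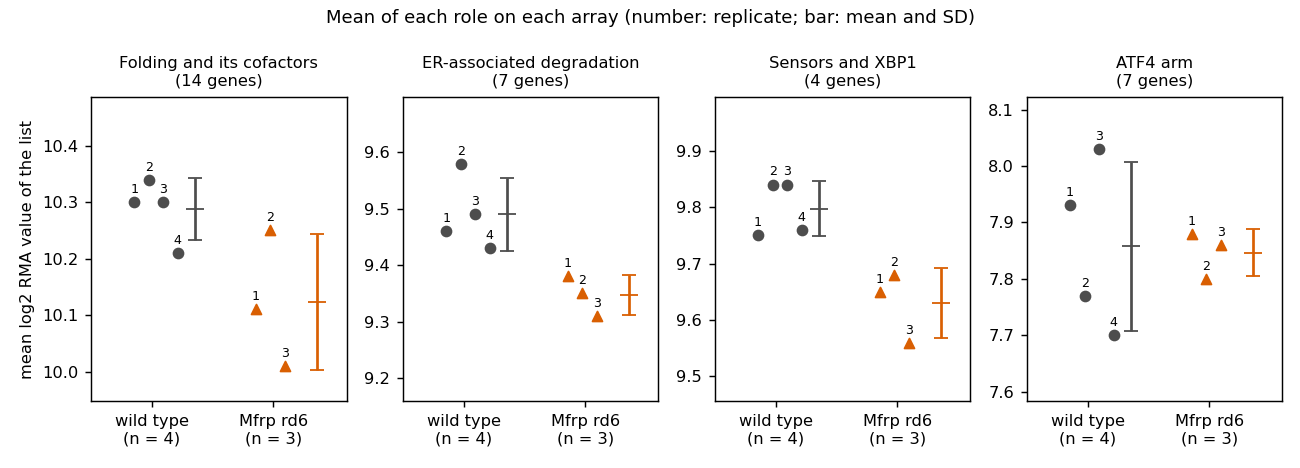
Mean log2 value of each role's genes on each array (points, numbered by replicate; circles wild type, triangles Mfrp rd6), with group mean and SD beside them. Each panel has its own range of the same height. The Mfrp rd6 arrays lie below all wild-type arrays for degradation (9.31 to 9.38 against 9.43 to 9.58) and for the sensors and Xbp1 (9.56 to 9.68 against 9.75 to 9.84), and inside the wild-type range for the ATF4 arm.

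Members with an ERSE in the window had changes from -0.25 (Derl3) to 0.05 (Syvn1), with a median of -0.21 over 9, of which 8 were negative. Over all 32 members the median was -0.15, with 27 negative. Hspa5, Hsp90b1 and Dnajc3, whose elements are printed above, lay at -0.24, -0.22 and -0.20, while Canx with the same element lay at -0.07. Over the other 12 measured genes of the array that hold an ERSE, the median was -0.06 with 9 negative, and 0 of them were called. Over all genes the median was -0.02, with 56.5% negative. Whether the element bore on the changes was not tested. Members with the ATF4-C/EBP element ran from -0.16 to 0.11, and the 561 other measured genes with it had a median of -0.01.

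**Figure D5:**
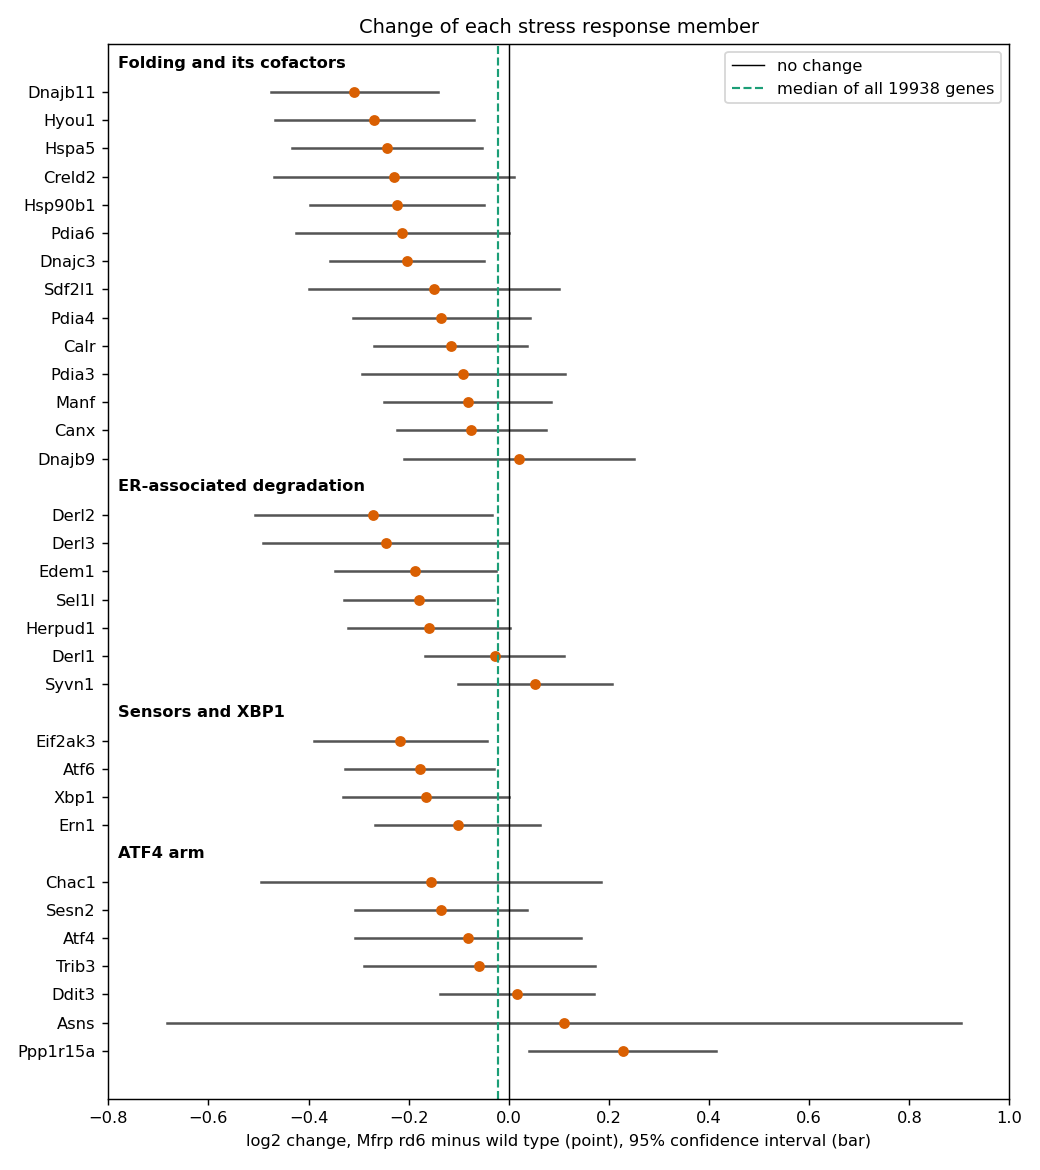
Log2 change of each member, Mfrp rd6 minus wild type (points), with its 95% confidence interval (bars), by role; the dashed line marks the median of all 19938 genes (-0.02). The intervals of 11 members lie wholly below 0, that of Ppp1r15a lies wholly above, and the point of Derl1 (-0.03) turns positive after quantile normalization.

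Further genes of the same pathways were taken from 5 lists with 163 measured genes, none of them a member. Of these 0 rose and 1 fell, where 1.34% of all genes were called higher and 0.813% lower. A negative change was found in 118 of 163 (72.4%), against 56.5% of all genes and 63% of those above the median level. The median was -0.07, against -0.02 and -0.04. The gene that fell was Slc7a5, the light chain of a large neutral amino acid transporter and a known target of ATF4. Slc7a5 read 11.11, 11.33, 11.50 and 11.24 in wild type and 10.84, 10.87 and 10.76 in Mfrp rd6, with no overlap, a change of -0.47 (SE 0.09, 95% interval -0.68 to -0.26, limma adjusted p = 0.0369). The call held in 8 of 18 alternatives, and among the fits without 1 array only in that without wild-type replicate 1 (limma adjusted p = 0.0301), the others giving an adjusted p of 0.0609 (without wild-type replicate 3), 0.0781 (without wild-type replicate 4), 0.0885 (without wild-type replicate 2), 0.0953, 0.106 and 0.115 (without Mfrp rd6 replicates 2, 1 and 3). Its partner chain Slc3a2 differed by -0.05 (95% interval -0.20 to 0.10).

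The other 36 measured genes of the ATF4 list held no call. Of the 37, 24 (64.9%) were negative, near the 63% of genes above the median level. Atf3, a stress and immediate early factor named after its values were seen, had the largest change of that list at 0.66 (95% interval 0.04 to 1.28, limma adjusted p = 0.289). It read 7.14, 6.74, 7.46 and 7.97 in wild type and 8.36, 8.09 and 7.51 in Mfrp rd6, and Mfrp rd6 replicate 3 lay within the wild-type range. The part of handling, for which the immediate early genes are given above, was not tested for Atf3.

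Genes of the translocon, signal peptidase and oligosaccharyl transferase, which bring proteins into the ER, were negative in 27 of 29 (93.1%), with a median of -0.10 and 0 calls. Of genes above the median level 63% were negative, with a median of -0.04. Sec11c, a catalytic subunit of signal peptidase, had the smallest p among them and read 8.36, 8.54, 8.47 and 8.31 in wild type and 8.26, 8.10 and 8.02 in Mfrp rd6 (change -0.29, limma adjusted p = 0.139). Dad1, which had the highest signal of that list, differed by 0.02. Of 32 further degradation genes 24 (75%) were negative, against that 63%, and 0 passed. Edem3, a relative of Edem1, came nearest at -0.32 (SE 0.07, limma adjusted p = 0.0519). Edem3 read 9.10, 8.99, 9.07 and 9.06 in wild type and 8.77, 8.80 and 8.65 in Mfrp rd6, and passed in 5 of 18 alternatives (limma adjusted p from 0.0189). That lowest value came with a variance trend and robust moderation, where 1.78% of all genes were called lower, against 0.813% in the main fit. Nploc4, with the highest signal of that list, differed by -0.09.

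Among 38 further folding genes 25 (65.8%) were negative and 0 passed, with a median of -0.05. That share lay near the 63% of genes above the median level. The smallest p belonged to a cargo receptor for glycoproteins leaving the ER, Lman1, which went the other way, with 11.09, 11.10, 11.19 and 11.09 in wild type and 11.53, 11.47 and 11.30 in Mfrp rd6. All Mfrp rd6 arrays lay above wild type (change 0.32, SE 0.08, limma adjusted p = 0.074), and Lman1 passed in 6 of 18 alternatives (limma adjusted p from 0.0127). The number of all genes called higher varied between settings too, with 267 in the main fit and 405 with array weights. Ppib, an ER cyclophilin, differed by 0.06. Among 27 further sensors and initiation factor genes 18 (66.7%) were negative, again near that share, and 0 passed. Eif2s2, the beta subunit of eIF2, had the smallest p at a change of -0.26 (limma adjusted p = 0.165). Tmbim6, an ER membrane protein, differed by 0.04.

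The samples are pellets of whatever came loose from the eyecup, and in such bulk RNA fewer cells of a type and less RNA per cell cannot be told apart. RPE markers lay above the array median in 12 of 13 genes (not Best1, at 5.88 in wild type and 5.82 in Mfrp rd6), with a mean over the 13 of 11.32 to 11.40 in wild type and 11.29 to 11.36 in Mfrp rd6, though Lrat, an enzyme of the visual cycle, fell by 0.40 on the log2 scale (limma adjusted p = 0.0277). Without passing, Rpe65 lay lower on every Mfrp rd6 array (change -0.22) and Trpm1 higher on every one (0.32). Markers of other cells moved with genotype on the same arrays. The mean of 19 microglia and macrophage genes was 7.16 to 7.27 in wild type and 8.81 to 9.38 in Mfrp rd6, with 15 higher and 0 lower. That of 14 skeletal muscle genes was 6.68 to 7.74 and 7.76 to 8.69 (3 higher), and that of 11 endothelial genes 6.89 to 7.37 and 7.44 to 7.82 (2 higher). Surface epithelium (10 genes, 11.75 to 11.85 against 11.58 to 11.68, 0 called) and fibroblast genes (7 genes, 7.67 to 7.87 against 7.36 to 7.58, 1 lower) had lower means in Mfrp rd6, and those of 14 rod genes overlapped (6.80 to 7.96 against 6.58 to 6.98, 0 called). All 10 surface epithelium genes lay above the array median too, and their mean exceeded the RPE mean on every array. The values of the stress response genes therefore cannot be assigned to the RPE alone. The mean of 6 markers of B and plasma cells, which carry a large secretory ER, lay near the lower quartile of the arrays (5.11 to 5.23 against 5.02 to 5.34, 0 called). The single genes ran from Jchain (3.86 in wild type and 3.84 in Mfrp rd6) to Cd79b (6.69 and 6.75), above the array median. Mzb1 (6.30 and 6.28) lay near that median. The part of these cell types in the values of the stress response genes was not tested.

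The mutated gene shares its probe set with C1qtnf5, the gene next to it, and that probe set read 11.22 to 11.49 in wild type and 11.09 to 11.23 in Mfrp rd6. The rd6 allele is known as a small deletion at a splice donor, so this probe set does not check the labels. Without Mfrp rd6 replicate 1, which leaves equal ages under the growth protocol, 29 of 32 members were negative, the median was -0.15 and 0 passed.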

How the data were processed

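The authors deposited 1 table of log2 values, 1 per probe set and array, made with Affymetrix Expression Console and RMA per the submitters' processing notes; the sources used here give no versions or library files, and scanner values were not used. RMA corrects background, equalises the arrays' distributions and summarises probes. Of 35556 probe sets, 21789 were annotated to 1 symbol, 1621 to several and 12146 to none; the highest-mean single-symbol probe set per gene left 19938 genes. Each was fitted with limma 3.58.1 (R 4.3.3, lmFit and eBayes, 5 residual and 4.56 prior degrees of freedom), Mfrp rd6 minus wild type, with Benjamini-Hochberg adjustment over all genes and a threshold of 0.05. No filter or block was used, and the procedure was tested on simulated data. The recovery required in that test was for changes larger than that of any member. Passing it therefore does not show how often changes of the members' size would be called. Smaller changes, near the lowest of the members, were planted as well, and how many of them were called is not given here. The precision is limited by 7 arrays. Members and lists were chosen with earlier results of these data known. Values by array are given for members past the threshold or separated between groups, for the largest change and highest signal of each role, and for Hspa5, Xbp1, Atf4, Ddit3 and the sensors; from each further pathway list, genes past the threshold or else the smallest p and the highest signal. Other members given by array were added after their values were seen. The 18 alternatives cover normalization, dim genes, probe set choice, moderation, array weights, a replicate block, left-out arrays and a minimum change. Python 3.11.15, pandas 2.3.3 and matplotlib 3.10.9 made the tables, motif searches and figures.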

Additional observations from a re-analysis of the deposited data

Results flagged for a closer look

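In the 4 wild-type arrays, 37 genes (the 32 members and 5 other pathway genes) were looked at for 1 array far from the rest, and chance alone gives about 1 such array in 20 genes. The array stood apart in 5 of them. Creld2 read 9.06 on wild-type replicate 4, against 9.27 for the nearest array. Derl2 read 9.23 on wild-type replicate 2, against 8.95, and Pdia4 read 11.28 on the same array, against 11.13. Ern1 read 9.37 on wild-type replicate 1, against 9.44 on the other three, a gap of 0.07. Lman1 read 11.19 on wild-type replicate 3, against 11.10.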

How the results depend on the processing

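Of the 32 members, 25 kept their sign in every one of the 18 alternatives that tested them; between 26 and 29 were negative (25 of 30 above the median level), and their median change stayed between -0.19 and -0.12. The count of changed members was 0 in 15 alternatives and 1 (Dnajb11, lower) with a mean of at least 6, above the median level, or with variance trend and robust moderation. Signs turned for Asns (-0.14 with the replicate block, -0.14 to 0.42 without 1 array), Atf4 (-0.15 to 0.04 without 1 array), Trib3 (0.01 with array weights, up to 0.02 without 1 array), Derl1 (0.01, quantile), Chac1 (0.04 with Mfrp rd6 replicate 2 and wild-type replicate 3 left out together, -0.36 to 0.01 without 1 array), Ddit3 (-0.01 and -0.02 to 0.04) and Dnajb9 (-0.04 and -0.05 to 0.14, likewise); the cause was not tested. The 429 changed genes became 167 (all probe sets), 679 (array weights), 718 (trend and robust), 226 (replicate block), 102 (minimum change of 1.2-fold), 193 (that pair left out) and 211 to 325 without 1 array. Of other pathway genes 1 changed, against 0 with all probe sets, the minimum change, the block or that pair left out, 2 with median centring or quantile normalization, 3 with array weights, trend and robust, or a filter on dim genes, and 0 to 1 without 1 array (1 without Mfrp rd6 replicate 3, where the gene was Lman1, and 1 without wild-type replicate 1). The replicate numbers did not pair the arrays (correlations of same-numbered deviations of -0.303, -0.0729 and 0.0364, and no array matched its own number best); with the block 28 members were negative and 0 passed.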
